A study of Mus musculus with 20 samples.

Results

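The 10 genes described here encode JmjC histone demethylases other than Kdm6b and its paralog Kdm6a. They are Kdm2a, Kdm2b, Kdm3a, Kdm3b, Kdm4a, Kdm4b, Kdm4c, Kdm5a, Kdm5b and Kdm7a. They were given as a list of symbols and matched to Ensembl gene IDs in the RNA count files. All 10 matched, out of 49671 gene IDs. The cells were hematopoietic stem cells (HSCs) of C57BL/6 mice aged 8 weeks, sorted from bone marrow as lineage-negative, cKit+, Sca1+, CD150+ and CD48- cells. RNA was counted in 3 Control libraries (Vav-CRE:Kdm6b+/+) and 3 Kdm6b-KO libraries (Vav-CRE:Kdm6bfl/fl), so both groups carried the Vav Cre driver, which expresses the recombinase across the blood system. Each RNA library came from pooled marrow of 3 male and 3 female mice. ATAC-seq, in which a transposase cuts DNA that is not packed away, was run on 3 libraries with Control in the title and 3 with 6bKO. All 6 ATAC libraries carry the genotype label wild-type, so those groups rest on the titles, and nothing in the labels says that the ATAC libraries came from separate animals. The remaining 8 of the 20 samples were not analysed here.

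JmjC demethylases are oxygenases that use iron and 2-oxoglutarate to remove methyl groups from histone lysines. Kdm6b and Kdm6a act on H3K27. The genes described here act mostly on other lysines: the Kdm2 enzymes on H3K36, the Kdm3 enzymes on H3K9, the Kdm4 enzymes on both of these, the Kdm5 enzymes on H3K4, and Kdm7a on H3K9 and H3K27. The comparison asks whether any of them has a higher transcript level in HSCs from which Kdm6b was deleted.

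None of the 10 genes was called higher or lower in Kdm6b-KO (edgeR's quasi-likelihood test, Benjamini-Hochberg adjusted p from 0.266 to 0.989 over all tested genes). Over all 15185 tested genes, 0.461% were called, 0.244% as higher and 0.217% as lower, and a count of 0 of 10 is near that background. An unadjusted p under 0.05 was found for 1 of the 10, Kdm4b, and for 14.8% of all tested genes. By limma-voom and by DESeq2 the count of called members was also 0. The log2 fold change, Kdm6b-KO over Control, was positive for 6 members and negative for 4, with a median of 0.07 against -0.0013 over all tested genes. It ranged from -0.50 (Kdm2a) to 0.72 (Kdm4b). The 95% intervals of 8 members lay within a 2-fold change in either direction, as did those of 8043 of the 15185 tested genes. Exceptions were Kdm2a, whose interval reached -1.05 on the log2 scale, and Kdm4b, whose interval reached 1.33. The summed level of the 10 genes was 1047 ± 148 CPM (reads of a gene scaled to a common TMM library size) over the Control libraries against 971 ± 76.1 CPM over the Kdm6b-KO ones (SD, n = 3 per group). No exonic lengths were used here, so CPM does not rank genes by transcript number. Below, the most abundant gene of a list is the one of highest mean CPM. In pooled libraries a change in cell composition and a change in RNA per cell cannot be told apart.

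**Figure D1:**
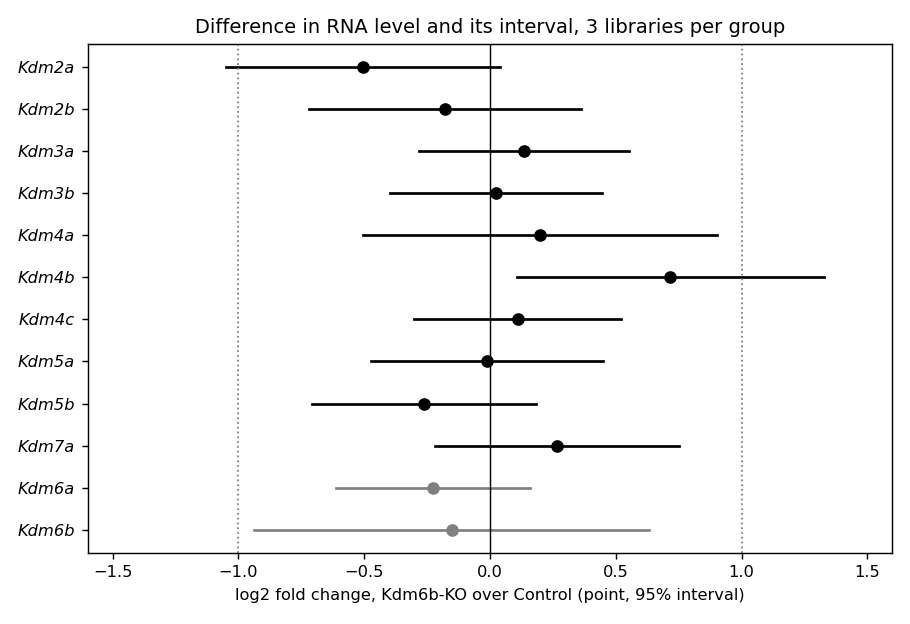
Log2 fold change of each gene (horizontal axis, Kdm6b-KO over Control) as a point with its 95% interval from edgeR's quasi-likelihood fit, with the 10 members in black and Kdm6a and Kdm6b in grey. Dotted lines mark a 2-fold change, and among the members only the Kdm4b interval, from 0.11 to 1.33, lies on one side of 0.

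Kdm6b stood at 92.0, 282.5 and 220.6 CPM in the Control libraries against 142.5, 202.1 and 191.3 CPM in the Kdm6b-KO ones. These whole-gene counts can include exons outside the deleted part, so they do not check the labels. Kdm6a stood at 86.8, 82.2 and 82.5 CPM in the Control libraries against 69.5, 80.4 and 65.1 CPM in the Kdm6b-KO ones (log2 fold change -0.23, 95% interval -0.61 to 0.16, adjusted p = 0.590), without overlap.

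Counts assigned to genes ranged from 6793873 to 19336121 per library. Control replicate 1 was the shallowest and Kdm6b-KO replicate 3 the deepest. The sort markers Kit, Ly6a and Slamf1 (the gene of CD150) were detected in every library, at 781.1 to 2169, 51.2 to 99.0 and 49.7 to 80.8 CPM. Cd48 had 4.6 to 16.7 CPM, and Cd3e had 0 or 1 read in each library. The list of 12 HSC genes summed to 4264 to 6892 CPM (Control) against 4791 to 5086 CPM (Kdm6b-KO). A list drawn up as markers of excluded cells summed to 396.1 to 542.1 CPM (Control) against 367.5 to 477.0 CPM (Kdm6b-KO). Most of it was Ptprc, at 349.6 to 506.6 CPM over the 6 libraries. Counts of Ptprc pool all forms of that gene, so this sum is no measure of excluded cells. Of 10 neutrophil marker genes, 0 were called, and their summed level ranged from 1194 to 3695 CPM (Control) against from 192.9 to 4341 CPM (Kdm6b-KO), where replicate 1 stood apart at 4341 CPM and replicates 2 and 3 had 194.6 and 192.9 CPM. The 2 most abundant followed this: Ngp read 1205, 323.8 and 601.1 CPM (Control) and 1151, 27.7 and 26.9 CPM (Kdm6b-KO), and Mpo read 772.8, 356.9 and 547.0 CPM (Control) and 1094, 55.9 and 20.3 CPM (Kdm6b-KO). Prtn3 of the same list departed from it, at 116.4, 76.2 and 112.9 CPM (Control) and 185.6, 49.9 and 96.0 CPM (Kdm6b-KO). For Prtn3, Kdm6b-KO replicate 3 lay within the Control range. Without Kdm6b-KO replicate 1 the count of the 10 demethylase genes called was again 0. Of 9 tested erythroid genes 0 were called. Their list's summed level was 8211 to 11100 CPM (Control) against 4495 to 5630 CPM (Kdm6b-KO) and consisted mainly of the carbonic anhydrase gene Car2 (9447 ± 1420 and 5098 ± 580 CPM). Car1 came next, at 297.8, 154.9 and 221.2 CPM (Control) and 169.2, 10.2 and 17.1 CPM (Kdm6b-KO), with the same replicate 1 high. The summed level of the monocyte list (Ms4a6c, Csf1r) was 72.8 to 86.6 and 55.1 to 118.0 CPM, of the B cell list (Cd79b, Vpreb1) 76.1 to 111.2 and 79.7 to 104.7 CPM and of the megakaryocyte list (Vwf, Gp9) 235.1 to 280.9 and 236.5 to 460.7 CPM. The T and NK cell list summed to 96.6 to 186.3 and 63.1 to 134.4 CPM, mostly Nkg7 (120.0 ± 49.2 and 78.6 ± 32.0 CPM). Its other tested genes lay the other way without overlap, Klrb1c at 6.65 ± 0.761 and 15.45 ± 3.4 CPM (adjusted p = 0.1) and Thy1 at 1.61 ± 0.612 and 3.525 ± 0.602 CPM (adjusted p = 0.299), and the median log2 fold change of the 3 was 1.15. The mast cell and basophil list (Cpa3, Prss34) had 14.8 to 81.6 CPM (Control) against 5.34 to 12.4 CPM (Kdm6b-KO), without overlap, and its highest library, Control replicate 1, held 51.3 CPM of Prss34. No gene of these lists was called, and their part in the values below was not tested.

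Kdm2a and Kdm2b are paired paralogs with a CXXC zinc finger that binds unmethylated CpG sites. Kdm2a stood at 161.4, 328.0 and 180.9 CPM in the Control libraries against 142.7, 183.7 and 146.5 CPM in the Kdm6b-KO ones. Control replicate 2 stood far above the other 5 libraries, and those 5 overlapped. The log2 fold change was -0.50 (SE 0.25, adjusted p = 0.375), and without Control replicate 2 it was -0.12. The annotated Kdm2a span lies on chromosome 19 (4316144 to 4398721, GRCm38/mm10), and an ATAC peak was listed at its upper end in all 6 libraries.

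Kdm2b, which recruits a variant Polycomb complex to CpG islands, stood at 26.0, 51.8 and 36.02 CPM in the Control libraries against 34.1, 37.6 and 29.1 CPM in the Kdm6b-KO ones. The Kdm6b-KO values all lay between the lowest and the highest Control value. Its log2 fold change was -0.18 (95% interval -0.72 to 0.36, adjusted p = 0.785), and without Control replicate 2 it turned to 0.11. Kdm2b spans 118607 bp on chromosome 5 (122870664 to 122989270). RefSeq annotates start sites at its upstream end and again 88.9 kb downstream, inside the gene. Transcripts from the internal start encode the short protein form, which keeps the CXXC domain and lacks the JmjC domain. The gene counts pool both forms. At the internal start a peak was listed in all 6 ATAC libraries, with the authors' fold enrichment between 6.78 and 12.8. At the most upstream start a peak was listed in 5 of the 6 libraries, all but Control replicate 1, with a fold enrichment between 4.28 and 6.56. In each of those 5 libraries the internal peak had the higher enrichment. A further start window, chr5:122988458-122988757, held a peak in Control replicate 1 alone.

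The upstream and internal windows are printed because they differ in base composition as well as in their peaks. Each runs from 250 bases before to 50 bases after a RefSeq start site in GRCm38.p6, 5′ to 3′ on the coding strand. Capitals mark 4 motifs, each searched with its reverse complement on both strands and with overlaps between matches allowed. The first is the CCAAT box, spelled as its name. The GC box was searched as GGGCGG. The core of the hypoxia response element was searched as ACGTG, so a core spelled GCGTG was not counted or marked. The AP-1 motif was searched as TGANTCA. The same marking is used for each window below.
Kdm2b upstream start, chr5:122989050-122989349, minus strand: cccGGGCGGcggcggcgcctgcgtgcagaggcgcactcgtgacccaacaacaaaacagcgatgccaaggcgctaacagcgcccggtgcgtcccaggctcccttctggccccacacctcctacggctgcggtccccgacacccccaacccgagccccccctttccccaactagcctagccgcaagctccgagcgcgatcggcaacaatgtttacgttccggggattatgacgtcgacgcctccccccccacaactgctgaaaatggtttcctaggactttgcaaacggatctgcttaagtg
Kdm2b internal start, chr5:122900301-122900600, minus strand: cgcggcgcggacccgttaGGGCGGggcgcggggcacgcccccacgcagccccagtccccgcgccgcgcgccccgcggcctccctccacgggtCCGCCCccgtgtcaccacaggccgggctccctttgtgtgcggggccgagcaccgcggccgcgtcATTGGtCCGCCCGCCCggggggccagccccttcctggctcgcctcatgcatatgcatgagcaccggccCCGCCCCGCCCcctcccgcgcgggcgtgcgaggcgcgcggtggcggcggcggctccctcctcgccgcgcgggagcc
The upstream window held 28 CpG dinucleotides and 1 GC box. The internal window held 49 CpG dinucleotides and 6 GC boxes, and 99.0% of the 32851 RefSeq promoter windows held fewer CpG. A GC box was found in 35.7% of all windows.

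**Figure D2:**
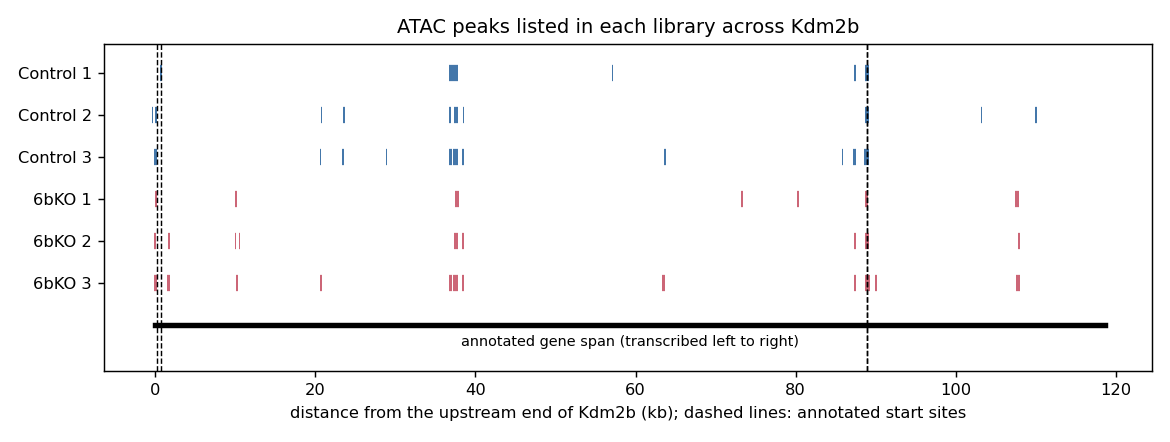
ATAC peaks listed in each library (rows, Control blue and 6bKO red by title) along Kdm2b, as distance in kb from its annotated upstream end, with dashed lines at the annotated start sites. All 6 libraries have a peak at the internal start, 88.9 kb from the upstream end, and all 6 also have a peak between the upstream and internal starts.

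Kdm3a and Kdm3b remove mono- and dimethylation from H3K9. Kdm3a stood at 50.2, 70.5 and 72.8 CPM in the Control libraries against 73.4, 70.0 and 69.5 CPM in the Kdm6b-KO ones. Control replicate 1 was the low library and the other 5 lay close together. The log2 fold change was 0.13 (95% interval -0.28 to 0.55, adjusted p = 0.792), and without Control replicate 1 it turned to -0.0129. Kdm3b stood at 91.4, 67.2 and 73.9 CPM in the Control libraries against 65.7, 80.9 and 89.4 CPM in the Kdm6b-KO ones, with a log2 fold change of 0.02 (95% interval -0.40 to 0.45, adjusted p = 0.973). The groups overlapped throughout. Both genes had a peak at the start in all 6 ATAC libraries. For Kdm3a this held at the upstream end. A further annotated start window inside Kdm3a, chr6:71609090-71609389, held no listed peak in any library. Kdm3a lies on chromosome 6 (71588970 to 71632990).

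Kdm3a is a well-known target of the hypoxia-inducible factors, so its start is shown for the hypoxia core. In this window 2 CCAAT boxes and 3 GC boxes were found and 0 matches to ACGTG, which occurred in 19.6% of all windows. The form GCGTG was not searched and is present in the window, so the start is not shown to lack a hypoxia core.
Kdm3a, chr6:71632868-71633167, minus strand: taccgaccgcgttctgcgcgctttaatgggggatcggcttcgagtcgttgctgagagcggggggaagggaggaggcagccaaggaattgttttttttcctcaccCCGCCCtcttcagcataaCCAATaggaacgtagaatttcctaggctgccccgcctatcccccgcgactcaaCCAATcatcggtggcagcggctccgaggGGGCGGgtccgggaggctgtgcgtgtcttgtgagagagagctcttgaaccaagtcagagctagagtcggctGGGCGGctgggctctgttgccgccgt
The window overlapped a peak of 464 to 1132 bp in every library. Of the known targets of these factors, 14 of 15 listed genes were tested, 9 had a positive and 5 a negative log2 fold change, 0 were called in either direction, and the median was 0.18. The most abundant, Ldha, a glycolytic enzyme gene, stood at 475.9 ± 10.2 CPM in the Control libraries against 557.4 ± 162 CPM in the Kdm6b-KO ones (adjusted p = 0.684). For Ndrg1 the means were 102.1 ± 17.5 and 69.1 ± 3.50 CPM, a log2 fold change of -0.56 with an adjusted p of 0.193. Adm had no read in any library.

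The 3 Kdm4 genes, whose products act on trimethylated H3K9 and H3K36, included the largest difference among the members. Kdm4b stood at 16.6, 12.2 and 10.3 CPM in the Control libraries against 16.6, 19.7 and 27.4 CPM in the Kdm6b-KO ones, a mean of 13.03 ± 3.22 and 21.2 ± 5.56 CPM (SD, n = 3 each). The highest Control and the lowest Kdm6b-KO library were level, at 16.59 and 16.61 CPM from 108 and 190 reads, so the groups met without overlapping. Kdm4b was the only member with groups that did not overlap, a property of 20.5% of all tested genes. Its log2 fold change was 0.72 (SE 0.29, 95% interval 0.11 to 1.33), a fold of 1.64, and the adjusted p from edgeR's quasi-likelihood test was 0.266. Kdm6b-KO replicate 3, the deepest library, was the highest, and without it the log2 fold change was 0.48 (adjusted p = 0.631). Without Control replicate 1 it was 0.93 (adjusted p = 0.0848).

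Kdm4a stood at 7.83, 10.2 and 12.6 CPM in the Control libraries against 14.3, 13.8 and 7.37 CPM in the Kdm6b-KO ones. Here Kdm6b-KO replicate 3 was the lowest of the 6 libraries, the reverse of Kdm4b. The log2 fold change was 0.20 (95% interval -0.50 to 0.90, adjusted p = 0.822), from 51 to 172 reads per library. With 1 library left out it ranged from 0.0385 (without Kdm6b-KO replicate 1) to 0.457 (without Kdm6b-KO replicate 3). Kdm4c stood at 44.5, 55.9 and 56.0 CPM in the Control libraries against 60.5, 57.4 and 51.2 CPM in the Kdm6b-KO ones (log2 fold change 0.11, 95% interval -0.30 to 0.52, adjusted p = 0.836). Its groups overlapped, with Control replicate 1 as the low library. By root mean square difference of centred log2(CPM + 1) over the 6 libraries, Kdm4c and Kdm3a were the closest pair of members, at 0.083, and Kdm2a and Kdm4b the farthest, at 0.73.

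The starts of Kdm4a and Kdm4b carried the most prominent peaks of the 10 genes. Kdm4a lies on chromosome 4 (118136957 to 118180090) and Kdm4b on chromosome 17 (56325970 to 56403774). At the Kdm4a start the authors' fold enrichment was 16.5 to 28.7 over the 6 libraries, and no more than 0.31% of any list had a higher −log10 q. At the lower end of Kdm4b it was 16.9 to 27, and no more than 0.175% of any list had a higher −log10 q. The enrichments are each list's own values, without common scaling, and make no comparison between groups. Kdm4c (chromosome 4, 74242497 to 74405864) has one start window at its annotated end and another further inside the gene. No peak was listed at the first in any library, and one was listed at the second in all 6, with a fold enrichment of 10.9 to 19.9. The Kdm4a window and the second Kdm4c window are printed as the Kdm4 starts that the RefSeq table holds and at which a peak was listed.
Kdm4a, chr4:118179994-118180293, minus strand: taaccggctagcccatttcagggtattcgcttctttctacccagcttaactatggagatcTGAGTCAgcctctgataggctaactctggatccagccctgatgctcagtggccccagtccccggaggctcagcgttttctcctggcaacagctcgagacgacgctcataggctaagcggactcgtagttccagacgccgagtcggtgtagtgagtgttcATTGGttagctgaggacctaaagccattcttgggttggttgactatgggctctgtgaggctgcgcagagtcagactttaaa
Kdm4c, chr4:74251629-74251928, plus strand: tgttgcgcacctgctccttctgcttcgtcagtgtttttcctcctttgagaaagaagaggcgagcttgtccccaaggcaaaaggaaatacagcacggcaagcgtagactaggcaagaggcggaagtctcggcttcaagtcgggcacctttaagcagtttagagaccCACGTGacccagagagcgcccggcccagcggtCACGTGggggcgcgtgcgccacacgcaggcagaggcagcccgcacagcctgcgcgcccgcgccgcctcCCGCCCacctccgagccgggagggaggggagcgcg
The Kdm4a window held 13 CpG dinucleotides, 0 GC boxes, 1 CCAAT box and 1 AP-1 match, a motif found in 7.81% of all windows. The Kdm4c window held 28 CpG dinucleotides, 1 GC box and a pair of palindromic cacgtg sites, each of which contains the hypoxia core on both strands.

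**Figure D3:**
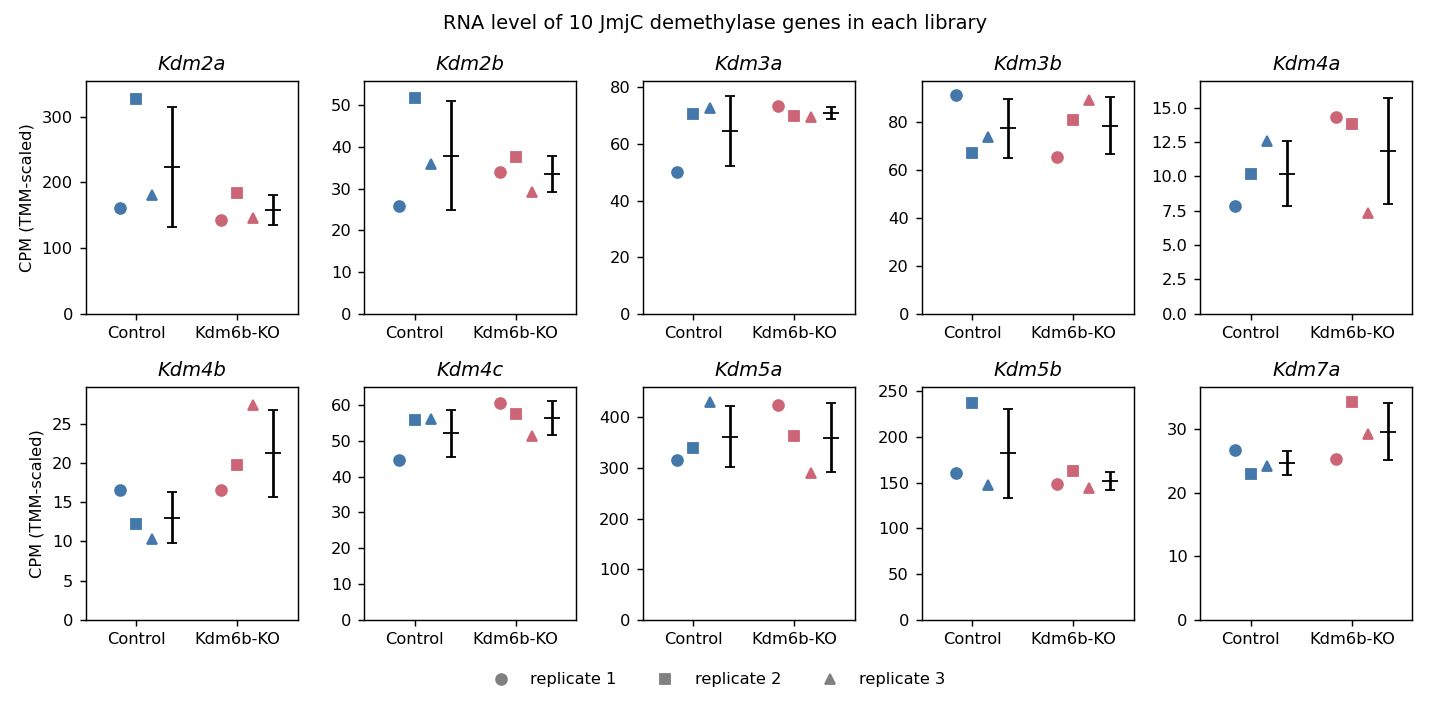
CPM of each member in each of the 6 RNA libraries (vertical axis from 0, TMM-scaled), Control in blue and Kdm6b-KO in red, with the group mean and SD (n = 3) in black. Control replicate 2 is the highest library for Kdm2a, Kdm2b and Kdm5b, and Kdm4b is the only panel in which the groups do not overlap.

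For Kdm4b, the member with the largest absolute log2 fold change, the genes with the most similar pattern over the 6 libraries were Trim45, Tnnt1 and Pex26, at root mean square differences of 0.045, 0.051 and 0.067 in centred log2(CPM + 1). Their mean levels went from 5.14 to 8.61, from 1.69 to 3.31 and from 7.002 to 11.1 CPM. None of them was called, at adjusted p = 0.347, 0.376 and 0.343 by edgeR's quasi-likelihood test. Tnnt1, at 12 to 95 reads per library, had a log2 fold change of 1.01, and the added 1 CPM shrinks differences at such low levels.

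Kdm5a and Kdm5b remove H3K4 methylation and act as corepressors. Kdm5a stood at 314.7, 340.2 and 430.4 CPM in the Control libraries against 425.1, 363.0 and 289.2 CPM in the Kdm6b-KO ones, and the groups overlapped. Its log2 fold change was -0.01 (95% interval -0.47 to 0.45, adjusted p = 0.989), and its sign turned under 4 of 13 alternatives. Kdm5b stood at 161.0, 237.4 and 147.9 CPM in the Control libraries against 148.3, 162.7 and 144.6 CPM in the Kdm6b-KO ones. As for Kdm2a and Kdm2b, Control replicate 2 was the highest library, and the other 5 lay between 144.6 and 162.7 CPM. The log2 fold change was -0.26 (95% interval -0.71 to 0.18, adjusted p = 0.591), and -0.02 without Control replicate 2. Of all tested genes, 20.8% had their highest value in that library.

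Kdm5a (chromosome 6, 120364099 to 120444574) had a peak at its lower end in all 6 ATAC libraries. Kdm5b (chromosome 1, 134560178 to 134632878) was the only member with no peak listed at its start in any library, although its transcript was counted at 1048 to 2923 reads in every RNA library. The nearest region listed in all 6 libraries lay 2879 bp from the annotated start, at chr1:134556730-134557299. A peak 1000 bp from the start was listed in the library titled 6bKO replicate 1 alone. The start window is printed as the exception.
Kdm5b, chr1:134559928-134560227, plus strand: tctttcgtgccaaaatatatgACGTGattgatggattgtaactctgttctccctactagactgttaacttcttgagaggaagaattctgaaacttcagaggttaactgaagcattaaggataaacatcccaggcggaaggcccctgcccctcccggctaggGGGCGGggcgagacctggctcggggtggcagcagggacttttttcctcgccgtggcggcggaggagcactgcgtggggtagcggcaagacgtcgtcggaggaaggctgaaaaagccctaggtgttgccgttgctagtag
It held 17 CpG dinucleotides, more than the median of 7 over all windows, with 1 GC box and 1 hypoxia core of the searched form ACGTG.

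Kdm7a, a PHD finger protein, is the member that shares H3K27 with Kdm6b as a substrate. It stood at 26.7, 23.0 and 24.3 CPM in the Control libraries against 25.3, 34.3 and 29.3 CPM in the Kdm6b-KO ones. One Kdm6b-KO library lay within the Control range and 2 above it. Its log2 fold change was 0.27 (SE 0.23, 95% interval -0.22 to 0.75, adjusted p = 0.621), so the upper bound corresponds to a fold of 1.68. The gene lies on chromosome 6 (39136620 to 39206773), and a peak was listed at its start in all 6 libraries. That window held 65 CpG dinucleotides, the highest count among the members' windows.

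Taking the starts of all 10 genes, 9 had a peak in every ATAC library. By promoter window this held for 5 of 6 members, against 62.3% of 10476 genes with such a window that were tested in RNA, and 28.2% of all genes with one. The other 4 members have no window in the RefSeq table and were judged by a peak within 1 kb of either end of the gene, among them Kdm3b (chromosome 18, 34777008 to 34839370). This held for 4 of 4, against 67.9% of 12044 protein-coding genes tested in RNA and 41.8% of all protein-coding genes.

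**Figure D4:**
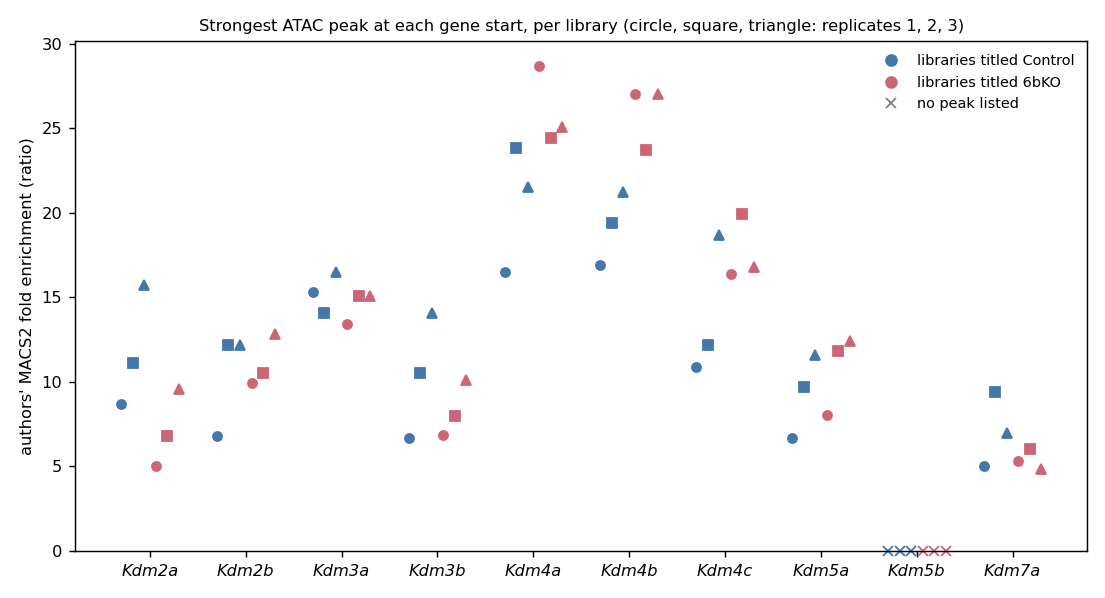
The authors' MACS2 fold enrichment (vertical axis, a ratio from 0) of the strongest peak at each gene's start in each of the 6 ATAC libraries, with a cross where no peak was listed. Kdm5b has no listed peak in any library, and Kdm4a and Kdm4b have the highest values. Enrichments are not scaled between libraries.

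Around the 10 genes, within 50 kb of their spans, the lists held 85, 89 and 113 peaks in the libraries titled Control and 97, 90 and 110 peaks in those titled 6bKO. The group means were 95.7 ± 15.1 and 99.0 ± 10.1 (SD, n = 3 each, exact permutation test, two-sided, p = 0.7). The lists themselves held 44739 to 62125 and 53692 to 69729 peaks. As a share of each list, the linked peaks were 0.179%, 0.199% and 0.182% in Control and 0.152%, 0.168% and 0.158% in 6bKO, without overlap. The mean share was 0.187 ± 0.0107% and 0.159 ± 0.00776% (exact permutation test, two-sided, p = 0.1, the smallest this design allows). With lists cut to equal length the difference had p = 0.3 by the same exact test. The windows also held between 1 and 6 other protein-coding genes per member, so the peaks are not those of the members alone.

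Merged across libraries, these peaks formed 198 regions. Of these, 22.7% were found in all 6 libraries and 43.9% in 1, against 13% and 59.9% of all 149774 regions. A region in every library of one group and in none of the other was found 5 times, 2.53% of the 198 regions against 1.59% of all regions (1.3% only in 6bKO and 0.288% only in Control). Those present only in the libraries titled 6bKO were chr5:122881275-122881826 and chr5:122978981-122979341, both within Kdm2b, and chr6:39226542-39226912, which is 19769 bp outside Kdm7a. Those present only in the libraries titled Control were chr6:120453150-120453544, which is 8576 bp outside Kdm5a, and chr1:134526805-134527124, which is 33054 bp outside Kdm5b. The number of such regions moved with the settings, from 2 with a stricter peak threshold to 10 without Control replicate 1. Leaving a library out also eased the rule, because its group then had fewer libraries to match.

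Other JmjC genes were examined as a list of 21, including Kdm6b and Kdm6a, of which 19 were tested. None was called. Of these 9 lay above and 10 below 0, at a median log2 fold change of -0.01. The most abundant after Kdm6b was Riox2, a ribosomal oxygenase gene, at 200.5 ± 36.9 CPM (Control) against 159.8 ± 9.13 CPM (Kdm6b-KO) (adjusted p = 0.452). Jmjd8, named after its values were seen because its adjusted p was the smallest of the list, stood at 72.3, 67.7 and 94.9 CPM in the Control libraries against 108.6, 104.9 and 138.9 CPM in the Kdm6b-KO ones (log2 fold change 0.58, adjusted p = 0.200). The Kdm1 enzymes, which demethylate by another chemistry, had 46.9 ± 9.40 and 54.9 ± 5.81 CPM for Kdm1a and 24.4 ± 7.20 and 21.0 ± 3.64 CPM for Kdm1b. Neither was called. Of 11 genes that make or consume 2-oxoglutarate, all tested, 5 were positive and 6 negative, and 0 were called. Idh3a had 351.8 ± 30.8 and 265.9 ± 10.1 CPM (adjusted p = 0.334) and Ogdh 294.5 ± 106 and 285.8 ± 40.8 CPM (adjusted p = 0.960).

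Among genes of the opposing methyltransferases, none was called. Of 6 H3K4 methyltransferase genes 4 were negative, with a median of -0.22. Kmt2d stood at 939.0, 2079 and 1088 CPM in the Control libraries against 674.6, 583.5 and 602.6 CPM in the Kdm6b-KO ones, groups that did not overlap (log2 fold change -1.14, adjusted p = 0.105). Kmt2a had 268.0 ± 17.3 and 209.0 ± 41.3 CPM (adjusted p = 0.416). All 5 H3K36 methyltransferase genes were negative, with a median of -0.36. Nsd1 stood at 792.8, 505.1 and 250.5 CPM in the Control libraries against 249.5, 235.8 and 252.0 CPM in the Kdm6b-KO ones (log2 fold change -1.07, adjusted p = 0.190), so that Control replicate 3 lay at the Kdm6b-KO level. Nsd3 had 601.7 ± 273 and 380.0 ± 31.4 CPM (adjusted p = 0.298). Of 6 H3K9 methyltransferase genes 4 were negative, with a median of -0.19, and the most abundant, Ehmt1 and Suv39h1, had adjusted p = 0.787 and 0.507. Ehmt2, named after its values were seen, had the largest difference of that list and lay the other way, at 22.9 ± 2.63 and 35.3 ± 3.64 CPM without overlap (log2 fold change 0.62, 95% interval 0.15 to 1.10, adjusted p = 0.219). All 4 genes of Polycomb repressive complex 2, the H3K27 methyltransferase, were negative, with a median of -0.33, including Ezh1 (101.4 ± 27 and 87.7 ± 11.8 CPM) and Eed (101.7 ± 23.1 and 77.5 ± 4.98 CPM). Ezh2, named after its values were seen, had the largest difference of that list. It had 105 ± 27.1 and 66.1 ± 3.56 CPM without overlap (log2 fold change -0.66, 95% interval -1.11 to -0.22, adjusted p = 0.168). Of 9 partners of Kdm2b in its Polycomb complex 4 were positive and 5 negative, with a median of -0.07. Skp1a and Rnf2 had adjusted p = 0.765 and 0.801. The median over all tested genes was -0.0013. Scaling by library totals, which moved that median to 0.147, left all H3K36 and Polycomb repressive complex 2 genes negative and gave 3 of 6 H3K9 genes, 6 of 9 Kdm2b partners, 8 of 11 2-oxoglutarate genes, 12 of 14 hypoxia targets (median 0.32) and 14 of 19 other JmjC genes a positive sign.

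**Figure D5:**
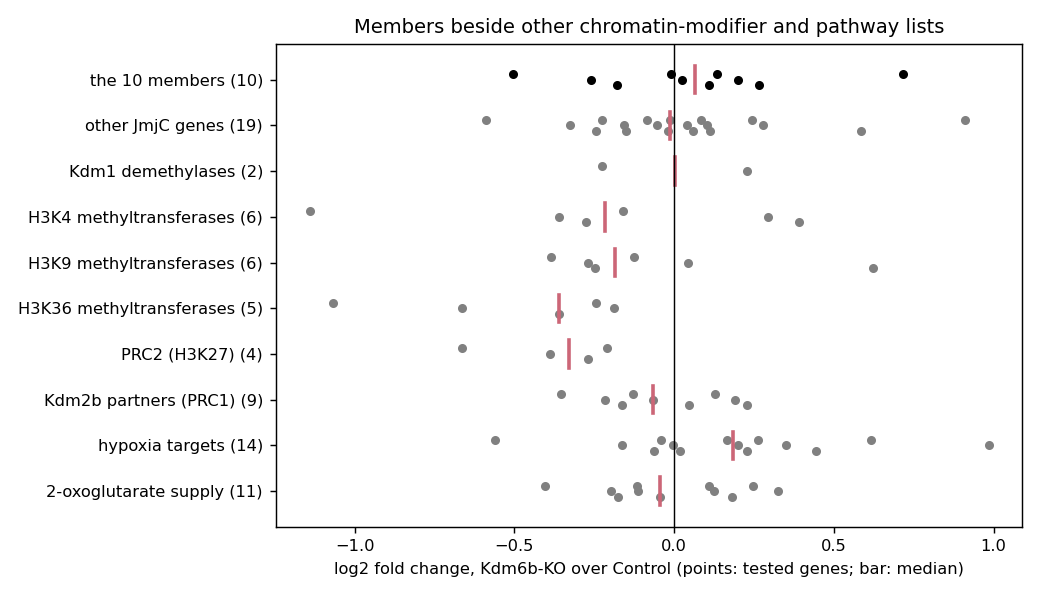
Log2 fold change (horizontal axis, Kdm6b-KO over Control) of each tested gene in the members and in 9 lists of related genes, with the number tested in brackets and a red bar at each list's median. The members scatter on both sides of 0, from -0.50 to 0.72.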

How the data were processed

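RNA was measured in 6 libraries and open chromatin in 6. For each RNA library the authors deposited raw counts by Ensembl gene, with 5 closing lines of unassigned reads, 80.27% to 83.54% of each file, left out here. The submitters' processing notes list, without roles, Partek 6.6, HTSeq 0.8.0, featureCounts 1.4.5 of Subread and STAR 2.0.4 for RNA, MACS2, BWA 0.7.16a and cutadapt 1.16 for ATAC, and the build mm10. The sources used here give neither strand setting nor annotation release, so reads of genes overlapping Kdm2a, Kdm2b, Kdm4a, Kdm4b, Kdm5a, Kdm5b and Kdm7a cannot be told apart. The deposited ATAC files hold a peak list per library. Their fold enrichment is a ratio and their q a −log10 value, both the authors' own for each peak. ATAC depth is unknown.

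The RNA test was edgeR's two-sided quasi-likelihood test (version 4.0.16, R 4.3.3), robust, on genotype, after filterByExpr and TMM, with Benjamini-Hochberg adjustment over 15185 genes and a threshold of 0.05. The SE is the size of the log2 fold change over the square root of F. Code was tested on simulated data. Replicate libraries differed by a chi-square of 14.75 or more per degree of freedom, so none was counted as a duplicate. At these depths 3 reads correspond to 0.155 to 0.442 CPM. Peaks overlapping by 1 bp were merged into regions. Positions and start windows came from RefSeq for GRCm38.p6, the assembly of mm10, where 6 members have a window. Alternatives were other scalings, filters, DESeq2 1.42.0, limma-voom (limma 3.58.1), a replicate block and leaving out each library, and for ATAC other thresholds, distances and overlaps.

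The members, gene lists and tests were chosen with earlier results of these data known. Named were all members, Kdm6b, Kdm6a, the 3 genes most like the most changed member, and from each list up to 2 called genes per direction or, with none, the 2 of highest mean CPM. The sort markers Ly6a, Slamf1 and Cd3e, and Prtn3, Thy1, Jmjd8, Ehmt2, Ezh2 and Adm, were named outside this rule after their values were seen. The marker Ly76 matched no gene.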

Additional observations from a re-analysis of the deposited data

How the results depend on the processing

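The count of members called was 0 under all 13 RNA alternatives. With the replicate block the log2 fold change of Kdm4b was 0.71 (adjusted p = 0.341), and the count of all called genes went from 70 to 88. Same-numbered libraries correlated at 0.074, 0.194 and -0.11 in their deviations from the group means, so the numbers were not taken as pairs. The count of all called genes was 576 with no filter on low counts, 467 with DESeq2 and between 20 and 519 with 1 library left out. Library totals in place of TMM moved the median of all genes to 0.147 on the log2 scale, with 70 higher and 30 lower genes called against 37 and 33. Signs turned for values near 0: Kdm5a was at 0.13 with library totals and 0.0152 with no filter, and ranged from -0.15 to 0.13 with a library left out. Likewise Kdm6b was at 0.0092 with library totals and ranged from -0.49 to 0.19, Kdm2b from -0.38 to 0.11, Kdm3a from -0.0129 to 0.231 and Kdm3b from -0.0812 to 0.16. No member had an adjusted p below the 0.0848 of Kdm4b without Control replicate 1. The ATAC share of linked peaks was lower in 6bKO under all 10 planned ATAC alternatives, with exact p from 0.1 to 0.3, and 9 members kept a start peak in every library. One of these alternatives, merging at 50 bp of overlap, acts on regions alone and could change neither value. The 5 regions of one group became 2 with −log10 q of at least 5, 3 with lists of equal length, 3 within 10 kb and 6 to 10 with a library left out. Leaving a library out eased the rule for these regions, because its group then had fewer libraries to match. Taking same-numbered ATAC libraries as pairs, a replicate block added after seeing the data, the share was lower in 6bKO in 3 of 3 pairs, by a mean difference of -0.0274 percentage points (exact sign-flip permutation test, two-sided, p = 0.25, the smallest that 3 pairs allow). With 3 libraries per group the exact tests cannot go below p = 0.1, and Kdm4a, at 51 to 172 reads, had the lowest counts of the members.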
